A study of Mus musculus with 26 samples.

Results

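Mesenchymal glioma genes were followed in RNA sequencing of tumour cells from mouse gliomas that differ in Notch signalling. The set holds 33 of the 24454 genes in the deposited counts table, found by matching Entrez gene identifiers to mouse symbols. Of these, 5 were taken in because they were higher in Rbpj-/- than in control libraries: Cd44, Lgals1, Timp1, Cd109 and Clca3a1. Their levels in the Rbpj-/- and control libraries chose them, so those levels are described below without a test. The other 28 were taken as genes known for the mesenchymal state of glioma or for the pathways that drive it. The 26 libraries came from early gliomas driven by PDGF in mice labelled as knocked out for the tumour suppressor Trp53. Cells carrying GFP, which marks cells where Cre recombinase switched on a reporter at the Rosa locus, were sorted from dissected tumours. The genotypes were Rbpj-/- (n = 4), Notch1-/-Notch2-/- (n = 5), Notch1-/- (n = 6), Notch2-/- (n = 5) and control tumours with intact Notch signalling (n = 6). The labels name neither the promoter that drove Cre nor the age of the mice.

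Notch1 and Notch2 are receptors that are cut when a neighbouring cell presents a ligand, and the freed inner part enters the nucleus and switches genes on together with the DNA-binding protein Rbpj. Gliomas have been sorted into expression states, among them a proneural state that resembles oligodendrocyte precursors and a mesenchymal state rich in adhesion, wound-healing and inflammatory genes. The transcription factors Stat3 and Cebpb, with Runx1, Fosl1 and NF-kappaB, are known as regulators of the mesenchymal state, and Cd44 is a widely used surface marker of it. Cytokines such as oncostatin M and tumour necrosis factor, made in part by macrophages, can push glioma cells towards it.

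Total counts per library ran from 30868828 to 48103535. Rbpj averaged 37.8 ± 13.5 CPM (the count scaled to library size, TMM-adjusted) in Rbpj-/- libraries and 61.2 ± 6.43 CPM in control libraries (SD, n = 4 and 6; edgeR quasi-likelihood test, adjusted p = 0.0222). Notch2 averaged 7.35 ± 0.950 CPM in Notch2-/- libraries and 12.7 ± 2.73 CPM in control libraries (SD, n = 5 and 6; edgeR adjusted p = 0.0200). In the libraries labelled Notch1-/-Notch2-/- it averaged 11.2 ± 1.32 CPM (SD, n = 5; edgeR adjusted p = 0.377 against control), which goes against the label, so the name is used below as a label only. Notch1 was not lower in Notch1-/- libraries (143.9 ± 45.4 CPM) than in control libraries (108.7 ± 30.8 CPM; SD, n = 6 each), and counts over a whole gene need not show a deletion of part of it. The Notch target Hes5 fell in Rbpj-/-, Notch1-/- and the libraries labelled Notch1-/-Notch2-/-, with edgeR adjusted p of 0.0148, 5.85e-05 and 6.91e-05. Nrarp, another Notch target, stood at 17.5 ± 5.22 CPM in Rbpj-/- and 23.2 ± 6.72 CPM in control libraries (SD, n = 4 and 6; edgeR adjusted p = 0.427), and Rbpj-/- was higher than the libraries labelled Notch1-/-Notch2-/- (5.61 ± 1.77 CPM, SD, n = 5; edgeR adjusted p = 0.0241). Trp53, knocked out in every group by label, was still counted at 8.14 to 18.1 CPM over the 26 libraries, and no group with the gene intact is at hand to compare. Control replicate 6 and Notch2-/- replicates 3 and 4 each held Xist, transcribed in female cells, together with Ddx3y of the Y chromosome at 10 CPM or more, and are called the mixed libraries. Ddx3y was at 0 CPM, with Xist at 1624 to 3465 CPM, in control replicate 1, Rbpj-/- replicate 2 and replicates 1 and 2 of those labelled Notch1-/-Notch2-/-. In Notch1-/- libraries Xist was at most 2.04 CPM and Ddx3y at least 52.5 CPM. Sex was thus uneven over the genotypes, and its part in the levels was not tested. The lineage markers Pdgfra and Olig2 were present in every library, at 1683 to 7177 CPM and 372.5 to 730.0 CPM. The summed level of 15 proneural genes was 4905 to 9830 CPM in the libraries labelled Notch1-/-Notch2-/- and 8059 to 10400 CPM in control libraries. It was 8070 to 10730 CPM in Rbpj-/-, 7885 to 10920 CPM in Notch1-/- and 9696 to 12130 CPM in Notch2-/- libraries. The mean log2 CPM of these genes was 7.88 in the libraries labelled Notch1-/-Notch2-/- and 7.87 in control libraries. It was 8.03 in Rbpj-/-, 7.95 in Notch1-/- and 7.85 in Notch2-/- libraries. Markers of other cells were also present. The summed level of 21 microglia and macrophage markers was 149 to 264 CPM in Rbpj-/- libraries, 56.4 to 185 CPM in the libraries labelled Notch1-/-Notch2-/-, 64.3 to 305 CPM in Notch1-/- libraries, 340 to 806 CPM in Notch2-/- libraries and 404 to 1679 CPM in control libraries. The microglial receptor P2ry12 was above 0 in every library, at 2.48 to 9.62 CPM in Rbpj-/- and 20.7 to 78.1 CPM in control libraries. The summed level of 15 endothelial markers was 117 to 172 CPM in Rbpj-/-, 121 to 159 CPM in the libraries labelled Notch1-/-Notch2-/-, 73.4 to 140 CPM in Notch1-/-, 216 to 398 CPM in Notch2-/- and 233 to 492 CPM in control libraries. In bulk samples, fewer cells of a type and less RNA per cell cannot be told apart.

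All 33 members passed the filter on low counts, which left 15617 genes. Scaled by transcript length, the member with the highest level in control libraries was the actin-binding gene Tagln2 (178 CPM per kilobase), followed by the caveolar coat gene Cav1 (52.4), Stat3 (49.0), the TNF receptor Tnfrsf1a (38.7) and the matrix gene Tgfbi (20.0). Cd44 (0.750 CPM per kilobase), Clca3a1 (0.536) and Cd109 (0.477) stood near the low end of this scale, and Fosl1, an AP-1 subunit, was the lowest (0.0965). The control levels of the 5 genes chosen for their rise took part in that choice, and Lgals1 among them stood at rank 6 (17.5 CPM per kilobase).

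**Figure D1:**
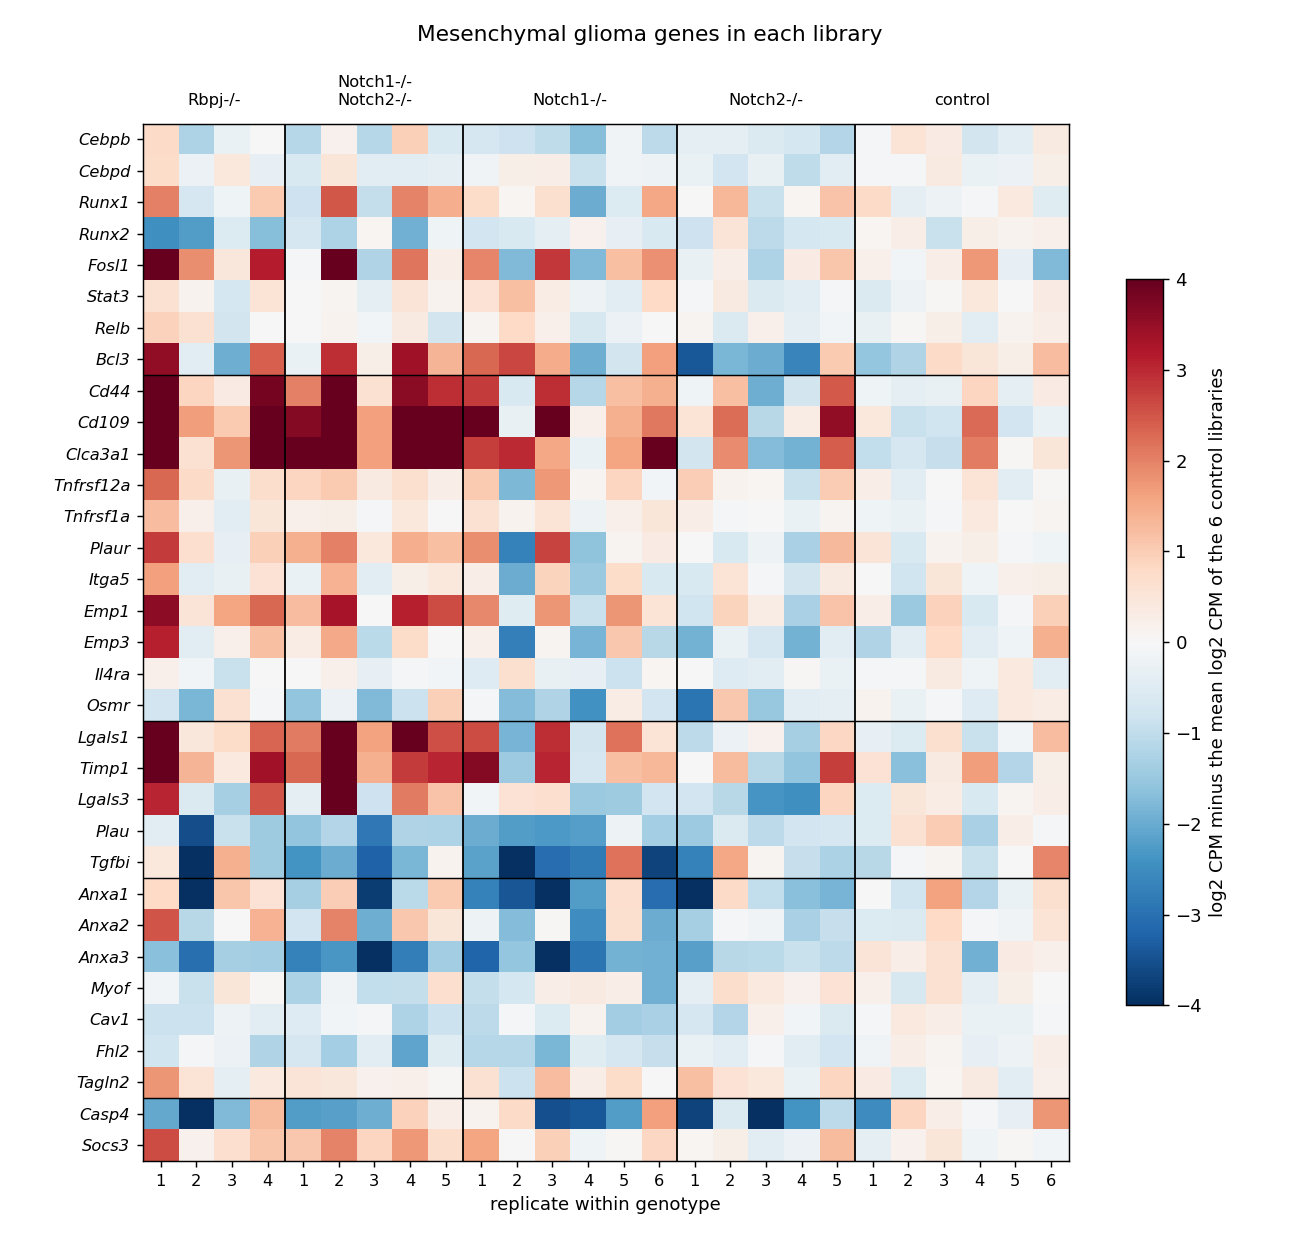
Level of each of the 33 members (rows, grouped by role: regulators, receptors and surface proteins, secreted proteins, annexins with membrane and cytoskeletal genes, and signalling) in each of the 26 libraries (columns, by genotype and replicate). Colour is log2 CPM minus the mean log2 CPM of the 6 control libraries, with the scale ending at 4 in each direction. Red stands mostly in Cd44, Cd109, Clca3a1, Lgals1, Timp1, Emp1 and Fosl1 of some Rbpj-/- and Notch1-/-Notch2-/- libraries, while Anxa3 and Plau are mostly blue outside control.

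The 5 genes chosen for their rise were high in some Rbpj-/- libraries and near control in others. Cd44, the receptor for the matrix sugar hyaluronan, stood at 98.1, 7.40, 5.09 and 58.3 CPM in Rbpj-/- replicates 1 to 4, against a lowest value of 3.12, a median of 3.42 and a highest of 7.29 CPM in control libraries. Replicates 1 and 4 were far above every control library and replicate 2 was just above and replicate 3 within the control range. Lgals1, which encodes the sugar-binding protein galectin-1, stood at 453, 16.7, 20.4 and 62.3 CPM in Rbpj-/- libraries, against a lowest of 6.63, a median of 10.5 and a highest of 29.0 CPM in control libraries. Timp1, an inhibitor of matrix metalloproteinases, stood at 29.0, 2.79, 1.39 and 11.3 CPM in Rbpj-/- libraries, against a lowest of 0.295, a median of 1.30 and a highest of 3.50 CPM in control libraries. In both genes replicates 1 and 4 were again the high ones and the other libraries overlapped control. Cd109, a membrane-anchored co-receptor that limits TGF-beta signalling, stood at 52.7, 6.21, 3.96 and 38.8 CPM in Rbpj-/- libraries, against a lowest of 1.01, a median of 1.35 and a highest of 9.44 CPM in control libraries. Clca3a1, a gene of the family of calcium-activated chloride channel regulators, stood at 29.6, 2.33, 5.33 and 39.8 CPM in Rbpj-/- libraries, against a lowest of 0.748, a median of 1.25 and a highest of 6.38 CPM in control libraries. The highest control value of Cd44, Timp1, Cd109 and Clca3a1 was in control replicate 4, the control library with the lowest microglia and macrophage sum (404 CPM). The part of those cells in these levels was not tested.

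By their medians, the same 5 genes were highest in the libraries labelled Notch1-/-Notch2-/-, lower in Notch1-/- and lowest in Notch2-/- libraries among these 3 receptor genotypes. Cd44 stood at 16.4, 127, 6.18, 50.01 and 31.6 CPM in the libraries labelled Notch1-/-Notch2-/-. In Notch1-/- libraries its lowest value was 1.79, its median 10.1 and its highest 31.6 CPM, and in Notch2-/- libraries it stood at 3.54, 9.29, 1.00, 2.40 and 22.4 CPM. Of the libraries labelled Notch1-/-Notch2-/-, only replicate 3 lay within the control range for Cd44. Clca3a1 stood at 35.2, 67.6, 4.81, 52.8 and 58.9 CPM in the libraries labelled Notch1-/-Notch2-/- and at 0.896, 5.72, 0.423, 0.374 and 8.30 CPM in Notch2-/- libraries. Cd109 stood at 24.7, 147, 6.02, 56.0 and 46.6 CPM in the libraries labelled Notch1-/-Notch2-/- and at 2.82, 9.19, 0.867, 2.38 and 22.7 CPM in Notch2-/- libraries. Lgals1 stood at 52.0, 293, 37.7, 211 and 72.9 CPM in the libraries labelled Notch1-/-Notch2-/-, all above its highest control value, and at 5.94, 10.4, 13.8, 4.86 and 21.8 CPM in Notch2-/- libraries. Timp1 stood at 5.34, 18.4, 2.89, 7.70 and 9.00 CPM in the libraries labelled Notch1-/-Notch2-/- and at 1.07, 2.61, 0.467, 0.320 and 7.39 CPM in Notch2-/- libraries. In all 5 genes replicate 3 was the lowest and replicate 2 the highest of the libraries labelled Notch1-/-Notch2-/-, and replicate 5 was the highest of the Notch2-/- libraries. On the log2 scale the fitted differences from control in Rbpj-/-, the libraries labelled Notch1-/-Notch2-/-, Notch1-/- and Notch2-/- were 3.32, 3.45, 1.73 and 0.87 for Cd44 and 3.30, 3.25, 1.59 and -0.30 for Lgals1. They were 2.98, 2.62, 1.80 and 0.76 for Timp1, 3.18, 4.32, 2.28 and 1.44 for Cd109, and 3.20, 4.39, 2.39 and 0.59 for Clca3a1. These differences share the control libraries that chose the genes and carry no test. The gene body of Timp1 lies within the span of the synaptic gene Syn1, which averaged 65.8 ± 20.4 CPM in Rbpj-/- and 54.4 ± 10.7 CPM in control libraries (SD, n = 4 and 6). No source used here gives the strand setting of the counting, and the reads of Timp1 and Syn1 may not be fully separated. Clca3a2, a close relative of Clca3a1, stood at a mean of 1.67 CPM in Rbpj-/-, 3.48 CPM in the libraries labelled Notch1-/-Notch2-/-, 0.749 CPM in Notch1-/-, 0.429 CPM in Notch2-/- and 0.220 CPM in control libraries, and reads shared by both would make the count of each uncertain.

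**Figure D2:**
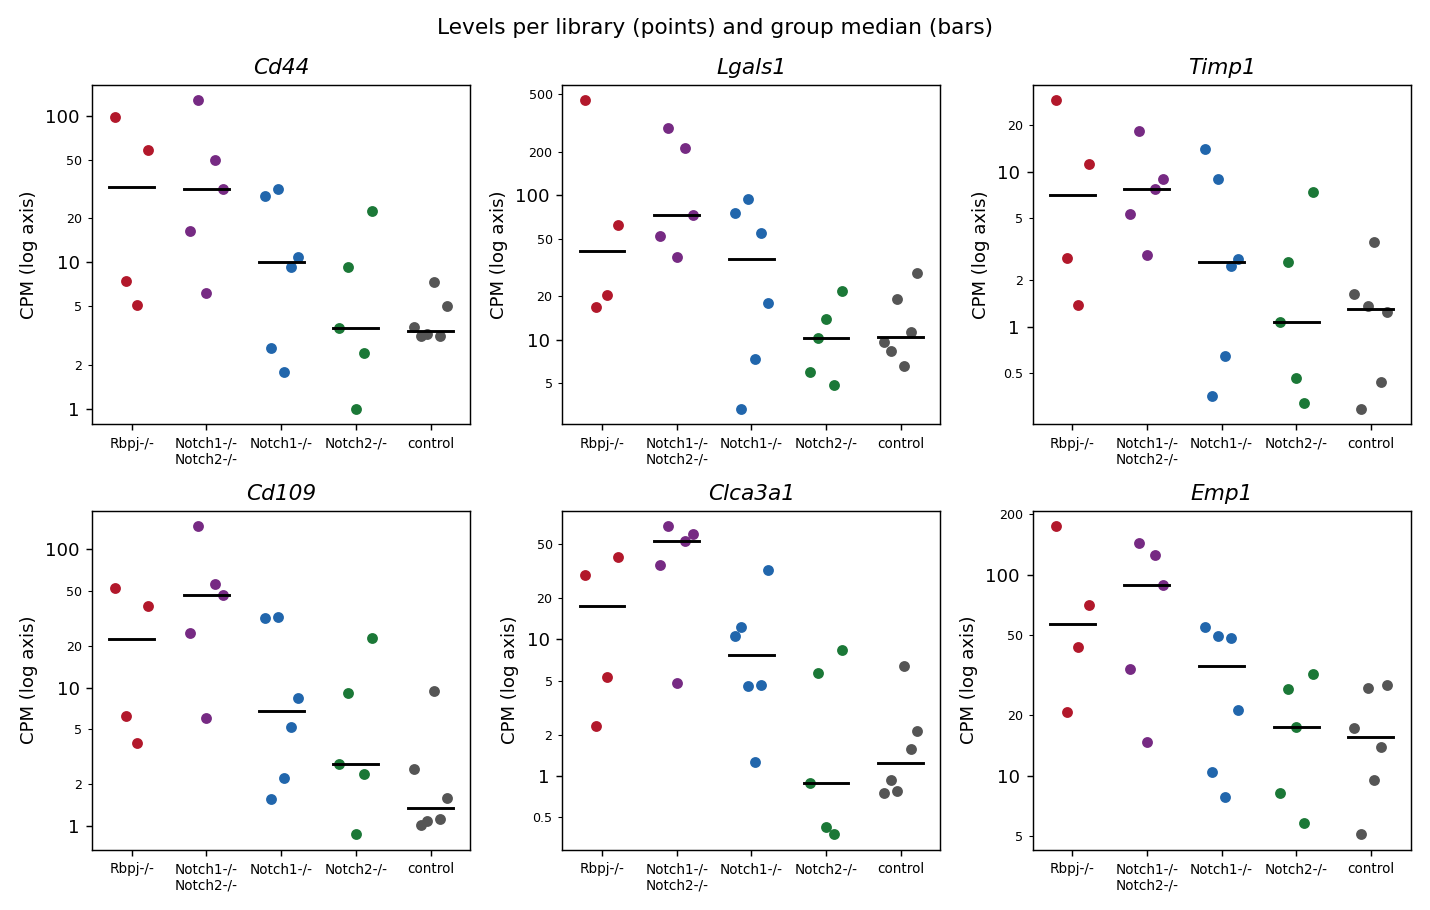
CPM on a log axis in each library (points) with the median of its genotype (bars) for the 5 genes chosen for their rise and for Emp1. In Rbpj-/- 2 points stand high for each chosen gene (98.1 and 58.3 CPM for Cd44) while the others reach into the control points, and Lgals1 in the libraries labelled Notch1-/-Notch2-/- (37.7 to 293 CPM) is above all control points.

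These 5 genes could be tested in the comparison of the libraries labelled Notch1-/-Notch2-/- with Notch2-/-, since their rise in Rbpj-/- over control, which chose them, used neither group. The members were still chosen with earlier results of these data known. Notch2 itself was higher in the libraries labelled Notch1-/-Notch2-/- than in Notch2-/- libraries (0.61 ± 0.16 on the log2 scale, SE, edgeR adjusted p = 0.0115). Lgals1 rose by 3.55 ± 0.93 on the log2 scale (SE; edgeR adjusted p = 0.0113) and Clca3a1 by 3.80 ± 1.00 (edgeR adjusted p = 0.0124). Lgals1 was higher in every library labelled Notch1-/-Notch2-/- than in any Notch2-/- library, a separation that 6.81% of all genes showed. Cd109 (2.88 ± 1.02, edgeR adjusted p = 0.0517), Cd44 (2.58 ± 0.92, 0.0526) and Timp1 (1.86 ± 0.95, 0.176) did not pass. Of all 33 members, 5 rose and 0 fell, or 15.2%, and of all genes tested 17.4% passed (7.09% higher). The share of members was thus close to that of all genes over both directions and above it for rises alone. Of the 5 genes chosen for their rise 2 rose (40%), and of the other 28 members 3 rose (10.7%). The other risers were Lgals3, another galectin (3.06 ± 0.93, edgeR adjusted p = 0.0260), Emp1, which encodes a membrane protein with several spans (2.17 ± 0.68, 0.0298), and Bcl3, a partner of NF-kappaB proteins in the nucleus (3.10 ± 1.07, 0.0469). Beside this, 16 of 21 microglia and macrophage markers and 13 of 15 endothelial markers fell in the same comparison, and their part in the rise of the members was not tested. With the mean level of the microglia and macrophage markers as a covariate, Lgals1 was at 2.819 ± 1.298 and Clca3a1 at 4.512 ± 1.341 (SE). Cd109 was at 1.768 ± 1.339, Cd44 at 2.278 ± 1.275 and Timp1 at 0.893 ± 1.364 in the same fit. Without the mixed libraries, which leaves 3 Notch2-/- libraries, 0 members passed with edgeR, with Lgals1 at 3.39 and Clca3a1 at 3.14 (adjusted p = 0.0816 and 0.0989). Of all genes, 978 of 15723 passed in that fit. With limma voom, Bcl3, Emp1 and Lgals3 did not pass (adjusted p = 0.174, 0.0738 and 0.248) and Lgals1 and Clca3a1 did. With single libraries left out, the calls of Lgals1 and Clca3a1 held every time (adjusted p up to 0.0355 and 0.0335). The count was 2 without replicate 2 of those labelled Notch1-/-Notch2-/- or without Notch2-/- replicate 1, 3 or 4. It was 3 without replicate 4 of those labelled Notch1-/-Notch2-/- or Notch2-/- replicate 2, and 8 without Notch2-/- replicate 5. Of all genes, 1705 passed without replicate 2 and 1478 without replicate 4 of those labelled Notch1-/-Notch2-/-. Without Notch2-/- replicates 1 to 5 in turn, 1997, 2500, 1909, 2091 and 2168 passed, where 2714 did in the full fit.

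High levels of the members gathered in a few libraries. Within Rbpj-/-, replicate 1 held the highest level of 23 of the 33 members (69.7%), against 36.8% of all genes tested. Among the libraries labelled Notch1-/-Notch2-/-, replicate 2 held the highest level of 18 members (54.5%, against 13.9% of all genes) and replicate 3 the lowest level of 22 (66.7%, against 23.5%). Within Notch2-/-, replicate 5 held the highest level of 12 members (36.4%, against 8.81% of all genes) and replicate 2 that of 13 (39.4%, against 26.3%). Among Notch1-/- libraries replicate 3 held the highest level of 10 (30.3%, against 19.3%). The ratio of the highest to the lowest library had a median over members of 6.60 in Rbpj-/-, 6.26 in the libraries labelled Notch1-/-Notch2-/-, 7.02 in Notch1-/-, 3.36 in Notch2-/- and 2.41 in control libraries, against medians over all genes of 2.04, 1.59, 1.80, 1.79 and 1.81 in the same order. Members were thus more variable between replicates than the median gene in every genotype, and least so in control. The members share libraries, and 5 were chosen by their Rbpj-/- and control levels. These shares and ratios are descriptions and carry no test.

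**Figure D3:**
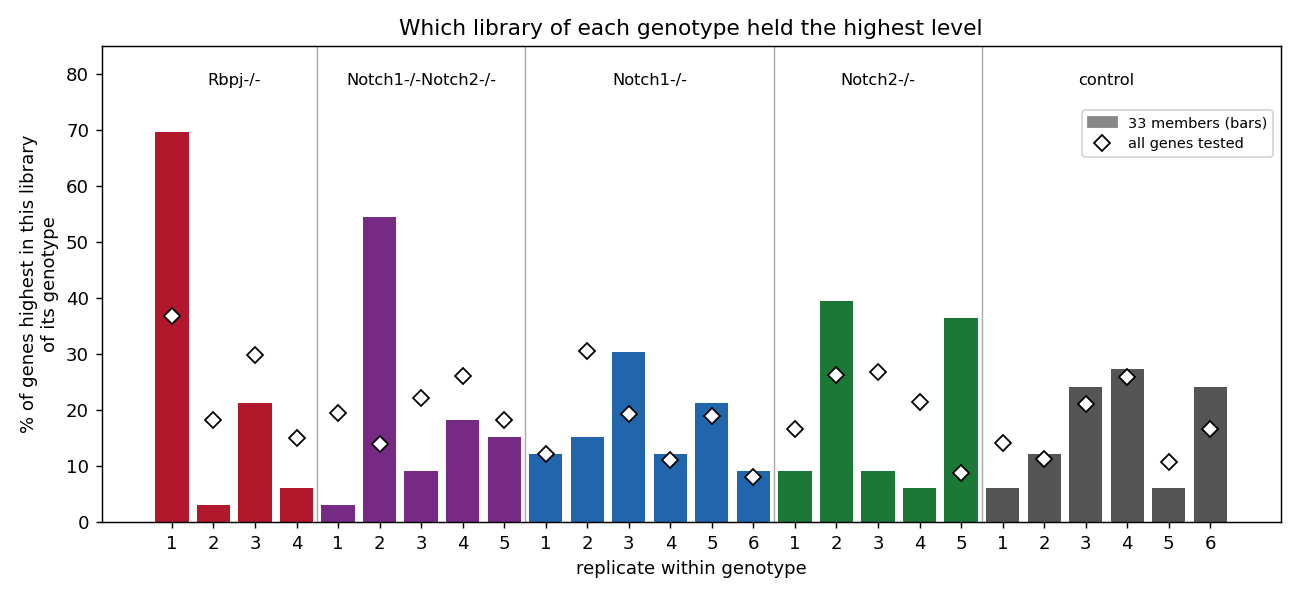
Percentage of genes whose highest level within a genotype was in a given library, for the 33 members (bars) and for all genes tested (diamonds), by replicate. Rbpj-/- replicate 1 (69.7% of members), replicate 2 of those labelled Notch1-/-Notch2-/- (54.5%) and Notch2-/- replicate 5 (36.4%) stand furthest above the diamonds. The bars include the 5 genes chosen for their rise. Without those genes Notch2-/- replicate 5 stands at 25.0% and Notch2-/- replicate 2 at 46.4%.

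Against control, the 28 members not chosen for their rise moved in both directions in small numbers. In Rbpj-/-, 3 rose and 2 fell (17.9%), where 15.2% of all genes tested passed (7.97% higher and 7.25% lower), and 12 had an unadjusted p under 0.05. The share of all genes under that unadjusted cut was not taken, here or below, so such counts have no background to be read against. With limma voom the 3 rises in Rbpj-/- did not pass, with Emp1 at 1.87, Fosl1 at 3.08 and Socs3 at 0.91 (adjusted p = 0.0844, 0.0736 and 0.133). In the libraries labelled Notch1-/-Notch2-/-, 3 rose and 3 fell (21.4%), where 37.1% of all genes passed (18.3% higher and 18.8% lower). In Notch1-/-, 0 rose and 3 fell (10.7%), where 26.7% of all genes passed (13.5% lower). In Notch2-/- no member passed with edgeR, where 0.295% of all genes did, 4 had an unadjusted p under 0.05, DESeq2 called 0 and limma voom 1. The shares were near the background in Rbpj-/- and below it in the libraries labelled Notch1-/-Notch2-/- and in Notch1-/-, so the members as a list did not stand out by their number of calls. Their median log2 fold change was 0.26 in Rbpj-/- (0.07 over all genes), 0.003 in the libraries labelled Notch1-/-Notch2-/- (0.006), -0.21 in Notch1-/- (0.04) and -0.35 in Notch2-/- (0.02). None of the 33 members had Rbpj-/- libraries that were all above or all below the control libraries, a separation that 7.74% of all genes showed. Lgals1 and Socs3 in the libraries labelled Notch1-/-Notch2-/- lay wholly above control, as 11.6% of all genes did, and Fhl2 there lay wholly below, as 11.1% did. The count in Rbpj-/- was 0 without Rbpj-/- replicate 1, 2 without replicate 2, 8 without replicate 3, 3 without replicate 4 and 3 without control replicate 2 or 5. Of all genes, 1403, 1132, 3292 and 1255 passed without Rbpj-/- replicates 1 to 4 in turn. Without control replicate 2 or 5, 1324 and 1884 did, where 2378 passed in the full fit. In Notch1-/- the count of members was 6 without Notch1-/- replicate 5, where 4322 of all genes passed.

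**Figure D4:**
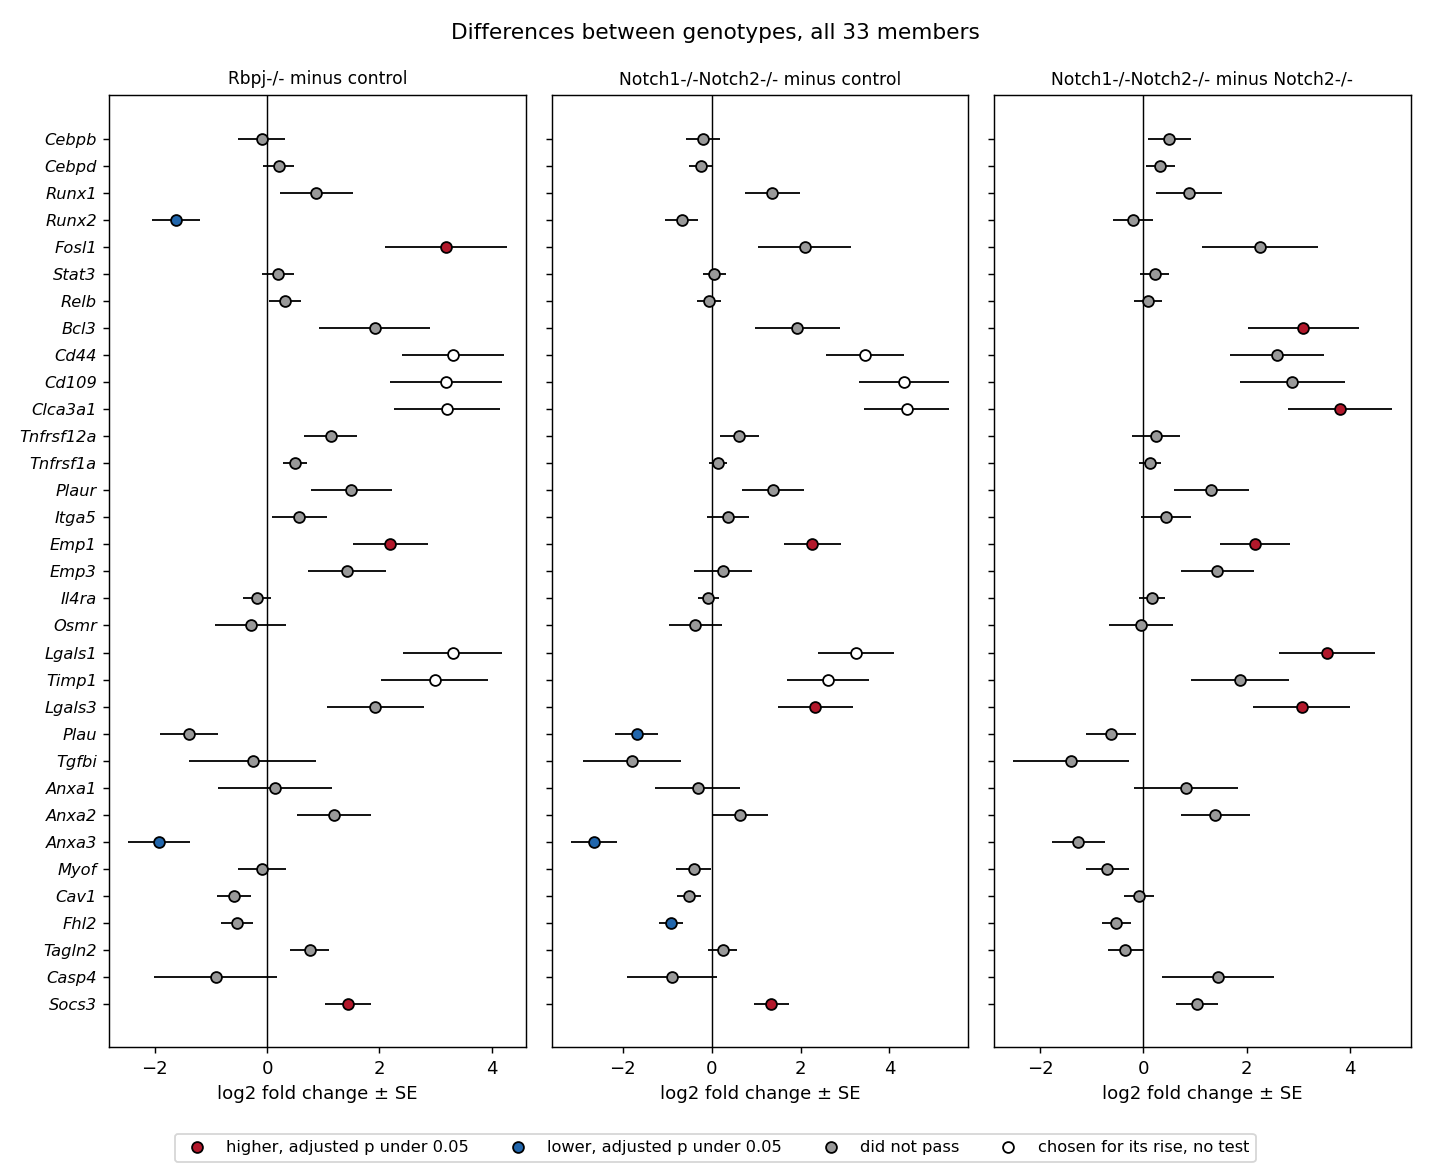
Log2 fold change with its standard error for each member in Rbpj-/- against control, the libraries labelled Notch1-/-Notch2-/- against control, and those against Notch2-/- (edgeR fit over 26 libraries). Red and blue points passed at an adjusted p under 0.05, grey points did not, and open points are the 5 genes that carry no test there. Grey points run from -1.39 (Plau) to 1.93 (Lgals3) in Rbpj-/- and from -1.40 (Tgfbi) to 2.88 (Cd109) against Notch2-/-. Emp1 is red in all 3 panels.

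Among the 8 regulators, Fosl1 rose and Runx2 fell in Rbpj-/- and the others passed no test against control. Fosl1 stood at 3.91, 0.559, 0.180 and 1.44 CPM in Rbpj-/- libraries, against a lowest of 0, a median of 0.125 and a highest of 0.503 CPM in control libraries. The fitted difference was 3.18 ± 1.09 (edgeR adjusted p = 0.0492), a call lost with limma voom and without Rbpj-/- replicate 1, 2 or 4 or control replicate 1, 2, 3, 5 or 6 (adjusted p up to 0.208). The span of Fosl1 also overlaps Ccdc85b, which stood at 15.0 ± 4.03 CPM in Rbpj-/- and 14.2 ± 1.03 CPM in control libraries (SD, n = 4 and 6). Runx2, best known as the master factor of bone formation, stood at 0.421, 0.493, 1.70 and 0.743 CPM in Rbpj-/- libraries, against a lowest of 1.33, a median of 2.82 and a highest of 2.99 CPM in control libraries. It fell by 1.62 ± 0.43 (edgeR adjusted p = 0.0154), a call lost without Rbpj-/- replicate 1 or 2 (adjusted p up to 0.0577). The groups overlapped only through Rbpj-/- replicate 3 and control replicate 3. The span of Runx2 overlaps Supt3, which stood at 18.1 ± 4.36 CPM in Rbpj-/- and 15.7 ± 2.94 CPM in control libraries (SD, n = 4 and 6), and the spans of Cebpd and Tnfrsf12a likewise overlap Spidr and Hcfc1r1. Bcl3 stood at 11.4, 0.691, 0.206 and 5.15 CPM in Rbpj-/- libraries and at 0.773, 7.52, 1.10, 10.3 and 2.49 CPM in those labelled Notch1-/-Notch2-/-, against a lowest of 0.290, a median of 1.22 and a highest of 2.24 CPM in control libraries. Its differences from control, 1.92 ± 0.99 and 1.93 ± 0.95, did not pass (edgeR adjusted p = 0.189 and 0.113). In Notch2-/- libraries Bcl3 stood at 0.0437, 0.228, 0.200, 0.107 and 1.97 CPM, and the rise in the libraries labelled Notch1-/-Notch2-/- was called against these low values. That call was lost without Notch2-/- replicate 1, 2, 3 or 4 or replicate 2, 4 or 5 of those labelled Notch1-/-Notch2-/- (adjusted p up to 0.142). Runx1, a factor of blood formation, had a difference of 0.88 ± 0.65 in Rbpj-/- and 1.37 ± 0.61 in the libraries labelled Notch1-/-Notch2-/- (edgeR adjusted p = 0.364 and 0.0811). Stat3 and Cebpb, central regulators of the mesenchymal state, passed in no genotype. Stat3 was at 253 ± 90.1 CPM in Rbpj-/-, 231 ± 50.6 CPM in the libraries labelled Notch1-/-Notch2-/- and 221 ± 52.97 CPM in control libraries (SD, n = 4, 5 and 6), with edgeR adjusted p of 0.675 and 0.872. Cebpb was at 1.44 ± 0.797, 1.34 ± 0.946 and 1.54 ± 0.511 CPM in the same groups, and its log2 difference from control was -0.09 ± 0.42 and -0.19 ± 0.39. In Notch1-/- Cebpb differed by -0.94 ± 0.38 and Stat3 by 0.45 ± 0.26 (edgeR adjusted p = 0.0672 and 0.186), and in Notch2-/- Cebpb differed by -0.70 ± 0.40 (0.408). Relb, a subunit of the slower NF-kappaB pathway, and Cebpd differed from control by 0.31 ± 0.28 and 0.21 ± 0.28 in Rbpj-/-. Cebpd in Notch2-/- libraries (0.667 to 1.16 CPM) lay just below all control libraries (1.17 to 1.81 CPM) without passing (edgeR adjusted p = 0.323), where 0.768% of all genes lay below in this way.

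Among the 11 receptors and surface proteins, 8 carry a test against control and only Emp1 passed. Emp1 stood at 174, 20.8, 43.4 and 70.5 CPM in Rbpj-/- libraries and at 33.8, 143, 14.7, 125 and 88.5 CPM in the libraries labelled Notch1-/-Notch2-/-, against a lowest of 5.10, a median of 15.5 and a highest of 28.1 CPM in control libraries. Every library of both groups was above every control library except Rbpj-/- replicate 2 and replicate 3 of those labelled Notch1-/-Notch2-/-. The rise was 2.20 ± 0.66 in Rbpj-/- and 2.27 ± 0.64 in the libraries labelled Notch1-/-Notch2-/- (edgeR adjusted p = 0.0286 and 0.00805). The call in the libraries labelled Notch1-/-Notch2-/- held without any single library (adjusted p up to 0.0278), while the call in Rbpj-/- was lost with limma voom and without Rbpj-/- replicate 1 or 4 or control replicate 2 or 5 (adjusted p up to 0.156). The call against Notch2-/- was lost without Notch2-/- replicate 1, 3 or 4 or replicate 2 or 4 of those labelled Notch1-/-Notch2-/- (adjusted p up to 0.0846). Emp1 in Notch1-/- libraries ranged from 7.81 to 54.7 CPM with a median of 34.9 CPM (0.93 ± 0.60, edgeR adjusted p = 0.244). Emp3, its relative, stood at 24.7, 2.04, 3.24 and 6.47 CPM in Rbpj-/- libraries, against 1.21 to 7.67 CPM in control libraries, so that only replicate 1 was out of the control range (1.42 ± 0.69, edgeR adjusted p = 0.157). The same replicate was the high one for the urokinase receptor Plaur, at 7.14, 1.61, 0.772 and 1.97 CPM in Rbpj-/- libraries, against 0.632 to 1.42 CPM in control libraries (1.50 ± 0.72, edgeR adjusted p = 0.156). It was also the high one for Tnfrsf12a, the receptor of the cytokine TWEAK, at 70.4, 24.8, 11.7 and 23.4 CPM in Rbpj-/- libraries, against 10.5 to 21.1 CPM in control libraries (1.13 ± 0.47, edgeR adjusted p = 0.103). Tnfrsf1a (0.49 ± 0.21), the fibronectin receptor subunit Itga5 (0.58 ± 0.49), the interleukin-4 receptor Il4ra (-0.17 ± 0.25) and the oncostatin M receptor Osmr (-0.29 ± 0.63) did not pass in Rbpj-/- (edgeR adjusted p = 0.113, 0.438, 0.668 and 0.779). Il4ra was among the steadiest members, at 3.55 to 7.58 CPM in Rbpj-/- libraries, 5.29 to 7.60 CPM in those labelled Notch1-/-Notch2-/- and 4.78 to 8.69 CPM in control libraries.

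Among secreted proteins not chosen for their rise, Lgals3 rose and Plau fell in the libraries labelled Notch1-/-Notch2-/-, and Tgfbi passed nowhere. Lgals3, which encodes galectin-3, stood at 5.85, 0.427, 0.232 and 4.01 CPM in Rbpj-/- libraries and at 0.500, 12.2, 0.350, 2.98 and 1.51 CPM in those labelled Notch1-/-Notch2-/-, against a lowest of 0.411, a median of 0.763 and a highest of 0.948 CPM in control libraries. Its rise of 2.33 ± 0.84 in the libraries labelled Notch1-/-Notch2-/- (edgeR adjusted p = 0.0327) was carried by replicates 2, 4 and 5, and it was lost with limma voom (1.03, adjusted p = 0.351) and without replicate 2 or control replicate 1, 4, 5 or 6 (adjusted p up to 0.370). The rise against Notch2-/- was lost without replicate 2 of those labelled Notch1-/-Notch2-/- or Notch2-/- replicate 1, 2, 3 or 4 (adjusted p up to 0.196). In Rbpj-/- the difference was 1.93 ± 0.87 (edgeR adjusted p = 0.130). Plau, the urokinase that turns plasminogen into plasmin and binds Plaur, stood at 3.89, 5.24, 1.56, 5.08 and 4.92 CPM in the libraries labelled Notch1-/-Notch2-/-. In Notch1-/- libraries its lowest value was 2.34, its median 2.73 and its highest 10.3 CPM, against a lowest of 4.80, a median of 12.7 and a highest of 24.0 CPM in control libraries. It fell by 1.69 ± 0.48 in the libraries labelled Notch1-/-Notch2-/- and by 1.68 ± 0.45 in Notch1-/- (edgeR adjusted p = 0.00898 and 0.0102), and both calls held without any single library (adjusted p up to 0.0265 and 0.0335). In Rbpj-/- Plau stood at 8.78, 0.954, 6.30 and 4.34 CPM (-1.39 ± 0.52, edgeR adjusted p = 0.0687). Plau thus fell in genotypes where its receptor Plaur, at 1.38 ± 0.69 and 1.11 ± 0.66 from control, did not pass. Tgfbi stood at 54.8, 1.28, 108 and 15.2 CPM in Rbpj-/- libraries, against a lowest of 18.7, a median of 39.8 and a highest of 158 CPM in control libraries (-0.26 ± 1.12, edgeR adjusted p = 0.899). In Notch1-/- libraries it was at most 9.08 CPM except in replicate 5, which had 184.5 CPM. The summed level of 14 mural and fibroblast markers was 1506 CPM in that library and 21.3 to 77.6 CPM in the other Notch1-/- libraries. The highest Tgfbi library of Rbpj-/- (replicate 3, 108 CPM), of those labelled Notch1-/-Notch2-/- (replicate 5, 44.4 CPM), of Notch2-/- (replicate 2, 118 CPM) and of control (replicate 6, 158 CPM) was likewise the one with the highest mural and fibroblast sum in its genotype, at 1072, 395, 1167 and 1052 CPM. The part of these cells in the level of Tgfbi was not tested.

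Among the 7 annexin, membrane and cytoskeletal genes, Anxa3 and Fhl2 fell and none rose. Anxa3, an annexin that binds membranes in a calcium-dependent way, stood at 2.50, 0.954, 3.24 and 3.06 CPM in Rbpj-/- libraries and at 1.21, 1.56, 0.350, 1.15 and 3.10 CPM in the libraries labelled Notch1-/-Notch2-/-. In Notch1-/- libraries its lowest value was 0.411, its median 1.56 and its highest 2.74 CPM, and in Notch2-/- libraries it stood at 1.75, 3.75, 3.83, 4.40 and 3.93 CPM. Control libraries had a lowest of 2.10, a median of 9.96 and a highest of 12.5 CPM. With control replicate 4 set aside, every control library was above every mutant library of all 4 genotypes. Anxa3 fell by 1.92 ± 0.55 in Rbpj-/-, 2.65 ± 0.52 in the libraries labelled Notch1-/-Notch2-/- and 2.58 ± 0.48 in Notch1-/- (edgeR adjusted p = 0.0223, 5.50e-04 and 9.38e-04). In Notch2-/- its difference of -1.39 ± 0.49 did not pass (edgeR adjusted p = 0.227). The calls in Notch1-/- and in the libraries labelled Notch1-/-Notch2-/- held without any single library (adjusted p up to 0.00374 and 0.00255), and the call in Rbpj-/- was lost without Rbpj-/- replicate 1 or 2 (adjusted p up to 0.0767). Microglia and macrophage markers fell in the same comparisons, 18 of 21 in Rbpj-/-, 19 of 21 in the libraries labelled Notch1-/-Notch2-/- and 20 of 21 in Notch1-/-, and control replicate 4, the low control for Anxa3, was also the low control for their sum. With the mean level of those markers as a covariate, the difference of Anxa3 in Rbpj-/- was 0.05 ± 0.65 and in the libraries labelled Notch1-/-Notch2-/- -0.23 ± 0.80. In Notch1-/- it was -0.105 ± 0.836. The covariate and the genotypes cannot be told apart well, since the mean log2 CPM of the markers was at most 2.84 in these 3 genotypes and at least 3.50 in control libraries. With it 0 of the 28 members passed in Rbpj-/-, in the libraries labelled Notch1-/-Notch2-/- or in Notch1-/- against control, and of the 15617 genes 7, 375 and 13 did, so few calls of any gene could be made there. Under this fit the standard errors were wider and the differences of several other called members were of a size near or above that without it. Runx2 in Rbpj-/- was at -2.25 ± 0.60, Socs3 at 1.75 ± 0.65, Emp1 at 1.86 ± 1.14 and Fosl1 at 2.87 ± 1.56. Plau was smaller, at -0.76 ± 0.95 in the libraries labelled Notch1-/-Notch2-/- and -0.63 ± 1.05 in Notch1-/-. In the libraries labelled Notch1-/-Notch2-/- Fhl2 was at -1.19 ± 0.53, Socs3 at 1.74 ± 0.76, Emp1 at 1.84 ± 1.32 and Lgals3 at 4.27 ± 1.45.

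Fhl2, a LIM-domain protein that links the cytoskeleton to transcription, stood at 5.78, 3.60, 6.93, 2.10 and 6.56 CPM in the libraries labelled Notch1-/-Notch2-/-. In Notch1-/- libraries its lowest value was 2.56, its median 4.56 and its highest 6.66 CPM, against a lowest of 7.43, a median of 9.25 and a highest of 11.3 CPM in control libraries. Neither group overlapped control, and in Notch1-/- 3.50% of all genes lay below control in this way. Fhl2 fell by 0.91 ± 0.28 and 0.99 ± 0.26 in them (edgeR adjusted p = 0.0123 and 0.00837), and both calls held without any single library (adjusted p up to 0.0393 and 0.0241). In Rbpj-/- it stood at 5.34, 8.88, 7.82 and 3.99 CPM (-0.53 ± 0.29, edgeR adjusted p = 0.216). Cav1, at 79.0, 79.3, 124 and 105 CPM in Rbpj-/- and 118.5 to 187 CPM in control libraries, did not pass (-0.58 ± 0.30, edgeR adjusted p = 0.183). Tagln2 (0.76 ± 0.34), the membrane-repair gene Myof (-0.09 ± 0.42), Anxa1 (0.14 ± 1.01) and Anxa2 (1.20 ± 0.66) did not pass in Rbpj-/- either. The annexins differed among themselves. Anxa2 stood at 85.8, 6.97, 15.4 and 39.5 CPM in Rbpj-/- libraries, with replicates 1 and 4 above the control range of 10.0 to 26.2 CPM, while no Rbpj-/- library of Anxa3 reached the control median.

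**Figure D5:**
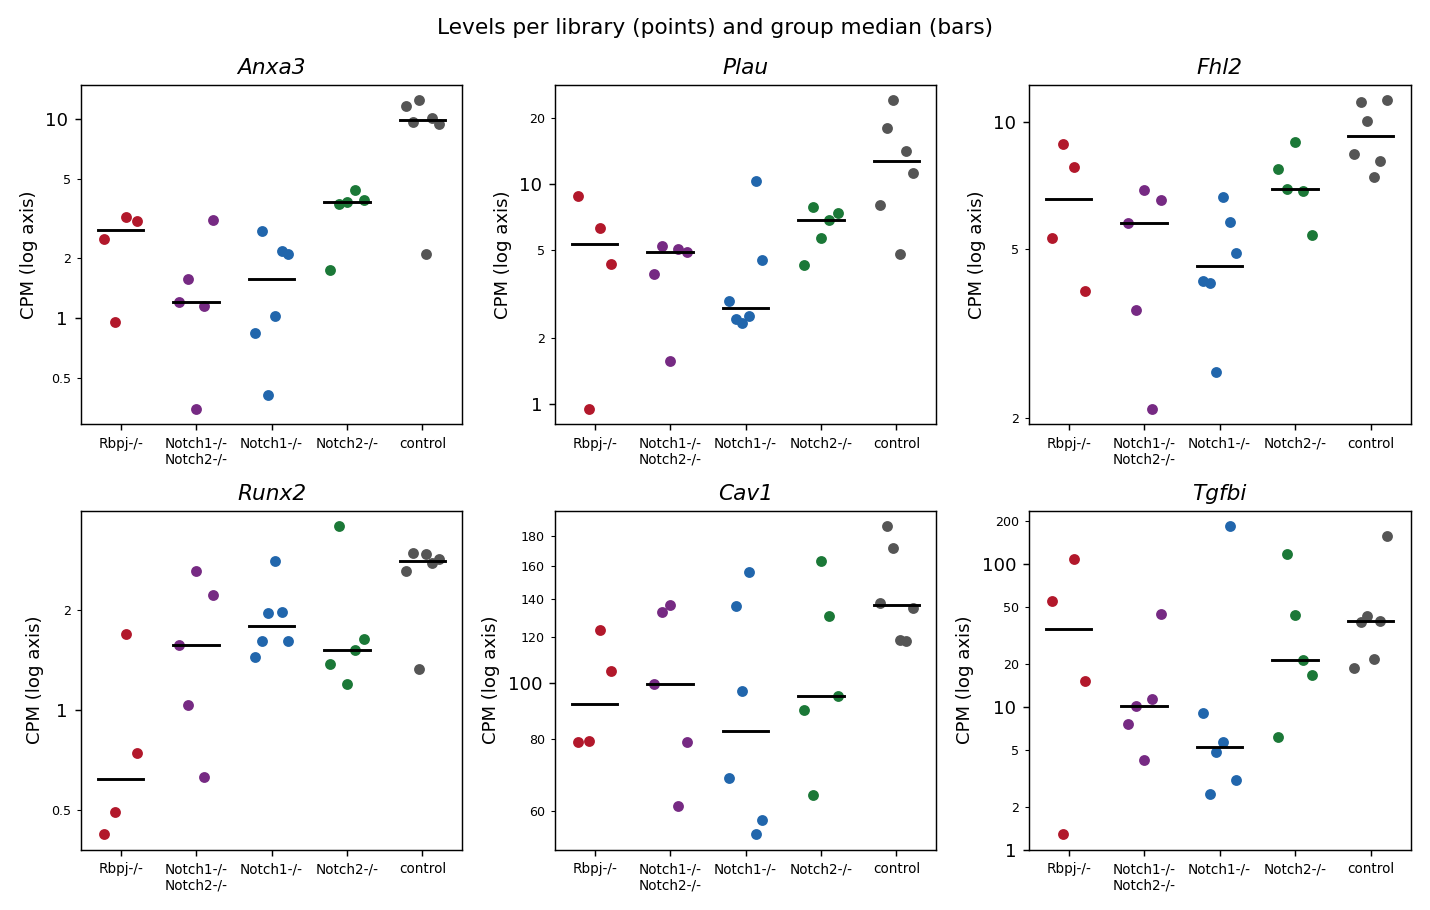
CPM on a log axis in each library (points) with the median of its genotype (bars) for Anxa3, Plau, Fhl2, Runx2, Cav1 and Tgfbi. Control points stand highest for Anxa3 except replicate 4 (2.10 CPM), Fhl2 in Notch1-/- and in the libraries labelled Notch1-/-Notch2-/- lies below all control points, and Tgfbi has a single Notch1-/- point at 184.5 CPM.

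Socs3 rose and Casp4 did not pass among the signalling members. Socs3, a target of Stat3 that in turn blocks cytokine receptors, stood at 66.4, 12.2, 17.2 and 23.5 CPM in Rbpj-/- libraries and at 22.7, 42.8, 19.6, 35.8 and 17.5 CPM in the libraries labelled Notch1-/-Notch2-/-, against a lowest of 8.18, a median of 10.5 and a highest of 15.0 CPM in control libraries. All libraries labelled Notch1-/-Notch2-/- were above all control libraries. The rise was 1.45 ± 0.41 in Rbpj-/- and 1.34 ± 0.39 in the libraries labelled Notch1-/-Notch2-/- (edgeR adjusted p = 0.0230 and 0.0108). The call in the libraries labelled Notch1-/-Notch2-/- held without any single library (adjusted p up to 0.0409), and the call in Rbpj-/- was lost with limma voom and without Rbpj-/- replicate 1 (adjusted p = 0.221). In Notch2-/- libraries Socs3 stood at 11.4, 12.8, 7.79, 9.13 and 26.2 CPM, and replicate 5, the high library of the 5 chosen genes, was again the high one. Casp4, an inflammatory caspase, stood at 0.515, 0.0658, 0.643 and 5.59 CPM in Rbpj-/- libraries and 0.362 to 8.00 CPM in control libraries, so that these groups overlapped.

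The remaining comparisons gave no member call with edgeR. Their counts at an unadjusted p under 0.05 have no share over all genes beside them, since none was taken at that cut. In Notch1-/- against Notch2-/-, 0 of 33 passed (3.09% of all genes), 5 had an unadjusted p under 0.05, DESeq2 called 0 and limma voom 1. In the libraries labelled Notch1-/-Notch2-/- against Notch1-/-, 0 of 33 passed (0.640% of all genes), 4 had an unadjusted p under 0.05, and DESeq2 and limma voom called 0. In Rbpj-/- against the libraries labelled Notch1-/-Notch2-/-, 0 of 28 passed (0.794% of all genes), 1 had an unadjusted p under 0.05, and both other tools called 0. The interaction of the losses of Notch1 and Notch2 was called for 0 of 28 members (0.0768% of all genes), with 3 at an unadjusted p under 0.05 and 0 calls with both other tools. Emp1 and Socs3 differed between Rbpj-/- and the libraries labelled Notch1-/-Notch2-/- by -0.07 ± 0.69 and 0.11 ± 0.43 on the log2 scale (SE).

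Promoter sequences were at hand for 26 of the 33 members, in the RefSeq table of assembly GRCm38.p6, from 250 bases before to 50 bases after each listed start. Those of the 5 members that rose in a test and have an entry are shown. Capitals mark matches on either strand to AP-1 (TGANTCA), STAT (TTCNNNGAA) and Runx (TGTGGT) in Emp1, to STAT and NF-kappaB (GGGA, any 4 bases, then CC) in Socs3 and to NF-kappaB in Bcl3 and Lgals3, while Clca3a1 held none of the motifs searched. The windows are chr6:135362681-135362980 and chr14:47373610-47373909 on the plus strand for Emp1 and Lgals3, and chr11:117969317-117969616, chr7:19822706-19823005 and chr3:144760928-144761227 on the minus strand for Socs3, Bcl3 and Clca3a1.
Emp1: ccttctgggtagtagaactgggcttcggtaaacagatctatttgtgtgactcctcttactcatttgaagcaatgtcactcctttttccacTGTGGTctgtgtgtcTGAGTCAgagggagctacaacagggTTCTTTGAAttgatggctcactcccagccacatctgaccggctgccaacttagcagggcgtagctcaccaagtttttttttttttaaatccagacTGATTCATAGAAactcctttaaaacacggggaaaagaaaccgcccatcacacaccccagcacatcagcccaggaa
Socs3: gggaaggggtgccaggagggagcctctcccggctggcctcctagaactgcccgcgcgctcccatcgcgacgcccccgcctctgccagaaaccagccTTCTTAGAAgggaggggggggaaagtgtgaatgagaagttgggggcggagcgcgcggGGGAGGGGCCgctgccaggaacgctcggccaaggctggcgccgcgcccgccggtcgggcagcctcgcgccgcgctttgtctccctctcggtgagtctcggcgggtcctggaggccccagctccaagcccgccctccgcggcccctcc
Bcl3: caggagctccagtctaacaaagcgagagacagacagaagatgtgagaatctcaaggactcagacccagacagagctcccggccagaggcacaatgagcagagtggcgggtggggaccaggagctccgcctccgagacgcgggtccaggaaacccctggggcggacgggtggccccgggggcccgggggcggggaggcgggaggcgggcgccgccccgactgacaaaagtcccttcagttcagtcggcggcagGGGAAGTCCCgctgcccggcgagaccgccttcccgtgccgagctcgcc
Lgals3: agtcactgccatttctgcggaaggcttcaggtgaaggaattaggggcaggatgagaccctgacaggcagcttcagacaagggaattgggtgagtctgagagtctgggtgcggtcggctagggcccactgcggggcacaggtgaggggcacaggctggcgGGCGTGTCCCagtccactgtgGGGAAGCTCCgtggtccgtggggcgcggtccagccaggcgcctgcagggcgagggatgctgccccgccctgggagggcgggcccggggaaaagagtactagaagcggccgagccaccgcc
Clca3a1: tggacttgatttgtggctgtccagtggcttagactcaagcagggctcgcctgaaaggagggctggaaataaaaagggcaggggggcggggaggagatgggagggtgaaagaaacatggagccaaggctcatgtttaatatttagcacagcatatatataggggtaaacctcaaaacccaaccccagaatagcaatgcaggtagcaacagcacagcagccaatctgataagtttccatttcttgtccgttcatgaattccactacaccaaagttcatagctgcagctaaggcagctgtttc
In Emp1 the AP-1 match nearer the start overlaps a STAT match. Over the members with a promoter, AP-1 was matched in 4 of 26 (15.4%: Anxa2, Emp1, Osmr and Plaur), against 7.81% of all promoters in the table, and STAT in 3 (11.5%: Emp1, Socs3 and Tnfrsf1a), against 8.30%. NF-kappaB was matched in 12 (46.2%), against 20.7% of all promoters, and Runx in 7 (26.9%), against 16.8%. C/EBP (TTGCNNAA) was matched in 3 (11.5%, against 10.8%) and TEAD (GGAATG) in 5 (19.2%, against 14.7%). The motif of RBPJ itself (GTGGGAA) was matched in 2, Anxa2 and Emp3 (7.69%, against 6.38%). Members with several listed starts were counted once where any start held the motif (26 genes with 32 promoters), which raises their share over the share of single promoters. A match of letters is a description, and its absence says only that those letters are not in this window.

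Other genes of the same pathways, on lists that share no gene with the members, are set against the 15.2% of all genes that passed in Rbpj-/- and the 37.1% that passed in the libraries labelled Notch1-/-Notch2-/-. By these shares the other mesenchymal genes were called no more often than all genes. Of 24 other mesenchymal glioma genes, 3 rose and 0 fell in Rbpj-/-: S100a10, the partner of Anxa2 (2.52 ± 0.79, edgeR adjusted p = 0.0341), Serpina3n, a protease inhibitor (2.42 ± 0.72, 0.0275), and Hmox1, a heme-degrading enzyme (1.32 ± 0.44, 0.0427). Among the same genes 4 rose and 4 fell in the libraries labelled Notch1-/-Notch2-/-. Serpina3n was at 324 to 797 CPM there and 22.0 to 89.0 CPM in control libraries (3.74 ± 0.73, edgeR adjusted p = 5.22e-04), while the chitinase-like gene Chil1 fell by 1.51 ± 0.30 (5.59e-04) and the calcium-binding genes S100a4 and S100a6 by 1.46 ± 0.38 and 1.45 ± 0.40 (0.00514 and 0.00661). Of 9 genes tested of the AP-1 family, to which Fosl1 belongs, 2 rose and 0 fell in Rbpj-/-, Fos (1.44 ± 0.36, edgeR adjusted p = 0.0121) and Jun (0.54 ± 0.17, 0.0408). Among these AP-1 genes 5 rose and 1 fell in the libraries labelled Notch1-/-Notch2-/-. Jun was at 208 to 307 CPM there and 78.7 to 101 CPM in control libraries (1.40 ± 0.17, edgeR adjusted p = 6.27e-06). Fos, Jun and their kin also answer to tissue dissociation, and of 20 genes of that response, a list that shares Fos and Jun with the AP-1 list, 2 rose and 1 fell in Rbpj-/- and 7 rose and 2 fell in the libraries labelled Notch1-/-Notch2-/-, and its part in these levels was not tested. Of 9 NF-kappaB genes, 0 rose and 1 fell in Rbpj-/-, the inhibitor Nfkbia (-0.80 ± 0.22, edgeR adjusted p = 0.0203), and 0 passed in the libraries labelled Notch1-/-Notch2-/-.

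Of 13 genes of the STAT3 pathway, 0 rose and 1 fell in Rbpj-/-, the interleukin-6 receptor Il6ra (-2.31 ± 0.47, edgeR adjusted p = 0.00458). In the libraries labelled Notch1-/-Notch2-/-, 0 rose and 2 fell, Il6ra (-2.36 ± 0.43) and the kinase Jak1 (-0.51 ± 0.13), with edgeR adjusted p of 3.13e-04 and 0.00517. Of 11 ligands tested that bind member receptors, 0 rose and 2 fell in Rbpj-/-, oncostatin M (Osm, -2.54 ± 0.82) and tumour necrosis factor (Tnf, -2.54 ± 0.75), with edgeR adjusted p of 0.0393 and 0.0262. Osm was at 0.283 to 1.90 CPM in Rbpj-/- and 0.914 to 7.97 CPM in control libraries. Both ligands are made by microglia and macrophages, whose markers fell in the same comparison, and the part of those cells was not tested. Of 15 proneural glioma genes, 3 rose and 0 fell in Rbpj-/-, the Notch ligand Dll3 (0.63 ± 0.16) and the transcription factors Sox4 (0.59 ± 0.19) and Sox11 (0.98 ± 0.29), with edgeR adjusted p of 0.0133, 0.0389 and 0.0278. The same 3 genes rose in the libraries labelled Notch1-/-Notch2-/-, where Olig1 fell.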

How the data were processed

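RNA was sequenced from 26 libraries of sorted glioma cells, with stranded libraries read on a NextSeq 500 per the labels' protocols, and STAR with mouse build mm10 is named in the submitters' processing notes. The authors deposited a table of raw counts per gene, with gene lengths, by Entrez identifier. No source used here names the counting tool or whether it used strand. Of 24454 identifiers 24374 matched a symbol, and the 80 others held 0.348% of counts. Whether replicates are separate animals is not stated, and p-values therefore reflect only the spread between these libraries, part of which may be technical. The 56 pairs of libraries within a genotype correlated at 0.900 to 0.984, and none agreed within sampling noise (chi-square per gene of at least 42.3).

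The deposited counts were fitted with edgeR 4.0.16 in R 4.3.3: TMM scaling, a filter on low counts by genotype, one mean per genotype over all 26 libraries, quasi-likelihood tests and Benjamini-Hochberg adjustment over 15617 genes, with a threshold of 0.05. Standard errors were the log2 fold change divided by the square root of F. CPM uses TMM-scaled totals, and log2 CPM has a prior count of 2. On simulated counts for 15479 genes, 56.6% of changes of fold 2 and 85.9% of fold 4 were recovered between the libraries labelled Notch1-/-Notch2-/- and control. The changed genes were drawn from all genes, and members varied more between libraries, so these rates need not hold for members. The members and gene lists were chosen with earlier results of these data known. All 33 members are named, and of other lists at most the 4 genes with the smallest adjusted p per comparison. Alternatives were DESeq2 1.42.0, limma 3.58.1 voom, DESeq2 size factors, other filters, only the compared libraries, a replicate block, a microglia and macrophage score as covariate, and fits without the mixed or single libraries.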

Additional observations from a re-analysis of the deposited data

Results flagged for a closer look

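In 9 of 165 groups of a member within a genotype, 1 library stood apart from the rest by the size of its gap relative to the range (5.45%). Gap and range were taken on a log scale, while the values below are in CPM. Chance alone gives about 1 in 20 such groups. Replicate 3 of the libraries labelled Notch1-/-Notch2-/- was low for Clca3a1, at 4.81 CPM where the others had 35.2 to 67.6 CPM. It was also low for Plau, at 1.56 CPM where the others had 3.89 to 5.24 CPM. Replicate 2 of the same genotype was high for Cebpd, at 1.99 CPM where the others had 0.910 to 1.08 CPM. Rbpj-/- replicate 2 was low for Anxa1, at 0.0658 CPM where the others had 3.39 to 4.91 CPM. Notch1-/- replicate 5 was high for Tgfbi, at 184.5 CPM where the others had 2.46 to 9.08 CPM. Notch2-/- replicate 1 was low for Anxa3, at 1.75 CPM where the others had 3.75 to 4.40 CPM. Notch2-/- replicate 2 was high for Runx2, at 3.60 CPM where the others had 1.20 to 1.64 CPM. Control replicate 4 was low for Anxa3, at 2.10 CPM where the others had 9.45 to 12.5 CPM, and control replicate 3 was low for Runx2, at 1.33 CPM where the others had 2.63 to 2.99 CPM.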

How the results depend on the processing

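The counts of called members against control were 5 in Rbpj-/-, 6 in the libraries labelled Notch1-/-Notch2-/-, 3 in Notch1-/- and 0 in Notch2-/-, and 5 in the libraries labelled Notch1-/-Notch2-/- against Notch2-/-. With genes of at least 10 CPM in 4 libraries they were 2, 3, 1 and 0, and 3, since fewer members were tested. Of the 10999 genes in that fit 1533, 4138, 3053 and 16, and 1778, were called. With limma voom the member counts were 3 (0 rose, 3 fell), 6, 6 and 1, and 3 against Notch2-/-, with 1 in Notch1-/- against Notch2-/-. Of all 15617 genes limma voom called 3747, 7364, 6907 and 1790 against control, where edgeR called 2378, 5794, 4174 and 46. In the libraries labelled Notch1-/-Notch2-/- against Notch2-/- limma voom called 4449 and edgeR 2714. With the microglia and macrophage score as covariate the member counts were 0, 0, 0 and 0, and 3 against Notch2-/-. Of the 19 calls made without the covariate 2 were kept, both against Notch2-/-, so the 3 include a member not called before. In that comparison Lgals1 was at 2.819 ± 1.298, Clca3a1 at 4.512 ± 1.341 and Lgals3 at 4.372 ± 1.194 with the covariate. Emp1 was at 1.895 ± 0.985 and Bcl3 at 4.049 ± 1.453. Of all genes 7, 375, 13 and 20 were called against control under the fit with the covariate, and 1313 against Notch2-/-. Anxa3 was then at 0.048 ± 0.652 in Rbpj-/-, -0.225 ± 0.801 in the libraries labelled Notch1-/-Notch2-/- and -0.105 ± 0.836 in Notch1-/-. Plau shrank to -0.759 ± 0.954 in the libraries labelled Notch1-/-Notch2-/- and -0.627 ± 1.047 in Notch1-/-. Runx2, Socs3, Emp1, Fhl2, Fosl1 and Lgals3 lost their calls against control with differences near or above those without the covariate. The score and the genotypes cannot be told apart well, and the part of those cells was not tested. In the libraries labelled Notch1-/-Notch2-/- against Notch2-/-, DESeq2 called 8, the fit of only the compared libraries 3, and the fit without the mixed libraries 0. Of all genes these fits called 3470, 2689 and 978. With the replicate block the member counts were 1 in Rbpj-/- and 3 against Notch2-/-, where 1304 and 2359 of all genes were called. Same-numbered libraries did not deviate together (mean correlation 0.002 over 47 pairs, -0.001 over 222 others), and 4 of 26 libraries correlated best with their own number. No pairing by number was seen, and batches that do not follow the numbers cannot be seen this way. Leaving out 1 library gave 0 to 8 calls in Rbpj-/-, 5 to 7 in the libraries labelled Notch1-/-Notch2-/-, 3 to 6 in Notch1-/- and 0 in Notch2-/- against control. It gave 2 to 8 in the libraries labelled Notch1-/-Notch2-/- and 0 to 1 in Notch1-/- against Notch2-/-, and 0 in the other comparisons. Of all genes, 1132 to 3292 were called in Rbpj-/- against control over these fits. In the libraries labelled Notch1-/-Notch2-/- against Notch2-/-, 1478 to 2897 were. The causes were not tested.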

Other observations

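Genes of astrocytes and mature oligodendrocytes fell in number in the 3 genotypes where microglial markers also fell. Of 20 astrocyte genes, 0 rose and 8 fell in Rbpj-/-, 0 rose and 14 fell in the libraries labelled Notch1-/-Notch2-/-, 1 rose and 12 fell in Notch1-/- and 0 passed in Notch2-/-, all against control with edgeR. Of 16 genes of mature oligodendrocytes, 11, 15, 12 and 0 fell in the same order of genotypes and 0 rose. Of 15 neuronal genes, 0 passed in Rbpj-/- or Notch2-/-. In the libraries labelled Notch1-/-Notch2-/- 1 rose and 2 fell, and in Notch1-/- 1 rose and 0 fell. Of all genes tested, 15.2% passed in Rbpj-/-, 37.1% in the libraries labelled Notch1-/-Notch2-/-, 26.7% in Notch1-/- and 0.295% in Notch2-/-.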
